A study of Mus musculus with 20 samples.

Results

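The cytosolic ribosomal protein genes code for the proteins of the ribosomes that translate nuclear-encoded mRNAs, and they were followed here in the livers of 20 mice. The genes were taken from the platform annotation by symbol: Rpl or Rps followed by digits, Rplp0, Rplp1, Rplp2 or Rpsa, without the Rps6k kinases and without symbols ending in -ps and digits. The rule found 68 genes among 19505 gene symbols, each measured by 1 of the 22206 probe sets. Of these, 31 code for proteins of the large subunit, 22 for proteins of the small subunit and 2 for the stalk (Rplp0 and Rplp1). The 55 genes of these classes are called ribosome components below. Another 12 are paralogues or retrocopies of such genes. The remaining gene, Rps19bp1, codes for a nucleolar protein that binds a ribosomal protein and is not part of the ribosome. A further 22 components, among them Rpl10, Rpl13a, Rps3, Rps27, Rps27a and Rplp2, were not analysed here.

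Total RNA of each liver was measured on 1 Affymetrix array, and the values are log2 signals. The labels give 4 groups of 5 mice, described as biological replicates: fasted Mcl1(L-/-), fed Mcl1(L-/-), fasted WT and fed WT. Fasted mice spent 48 hours without food, each alone in a cage with a wire bottom, and fed mice ate freely. All mice had water at all times. In Mcl1(L-/-) mice the floxed Mcl1 alleles, Mcl1(F/F), were deleted in the liver by AAV-LP1-Cre, a virus that carries Cre recombinase behind a liver promoter. The growth protocol with Mcl1(F/F) and AAV-LP1-Cre stands on all 20 samples, so what WT mice carried and received is not given, nor are age, sex or virus dose. The stated question is which transcripts change on fasting when MCL-1, a protein that protects cells from apoptosis, is missing from the liver.

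Every ribosome needs each of its proteins about once, and cells keep their synthesis in step with that of ribosomal RNA. Much of this control acts on translation: ribosomal protein mRNAs begin with a run of pyrimidines, the terminal oligopyrimidine tract, through which the mTOR pathway and the RNA-binding protein Larp1 switch them between storage and translation when nutrients change. In the fasted liver, ribosomes are degraded and total protein falls, so mRNA levels alone do not give the rate of ribosome synthesis. In bulk liver RNA, fewer cells of a type and less RNA per cell cannot be told apart.

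The Mcl1 signal followed the labels. It averaged 6.14 ± 0.25 in fasted Mcl1(L-/-) livers, 6.09 ± 0.16 in fed Mcl1(L-/-) livers, 7.28 ± 0.09 in fasted WT livers and 7.43 ± 0.15 in fed WT livers (SD, n = 5 each). The 10 Mcl1(L-/-) arrays lay below the 10 WT arrays. Among markers of other cell types, those of Kupffer cells, the macrophages of the liver, moved with fasting: 3 of 12 were called lower in fasted Mcl1(L-/-) livers and 5 of 12 in fasted WT livers. Their summed linear signal was 490 to 911 in fasted and 718 to 950 in fed Mcl1(L-/-) livers, and 350 to 481 in fasted and 652 to 870 in fed WT livers. Between the fasted groups, 5 of the 12 were called higher in Mcl1(L-/-) and all 12 differences were above 0, and 1 of the 12 was called for the difference between the fasting responses. Of 7 endothelial markers, 2 were called higher by fasting in Mcl1(L-/-) mice, and 1 higher and 2 lower in WT mice. Their sum was 483 to 712 in fasted and 424 to 574 in fed Mcl1(L-/-) livers, and 416 to 614 in fasted and 539 to 704 in fed WT livers. None of the 7 was called between the fasted groups or for the difference between the responses, but all 7 differences were above 0 in both, as were most of those of the ribosomal protein genes. The 2 erythroid markers summed to 80 to 98 in fasted and 179 to 255 in fed Mcl1(L-/-) livers, and to 96 to 137 in fasted and 217 to 308 in fed WT livers. Of these 2, 1 was called lower by fasting in each genotype. Of 7 stellate cell markers, 2 were called lower by fasting in each genotype, and the 10 lymphocyte markers, all below the median probe set, were called in none, nor were the 5 cholangiocyte and 6 exocrine pancreas markers. All 16 hepatocyte markers lay above the median probe set, with sums of 57581 to 62067 in fasted Mcl1(L-/-), 60763 to 63537 in fed Mcl1(L-/-), 62046 to 63829 in fasted WT and 61566 to 64867 in fed WT livers. Of these 16, 1 was called higher by fasting in each genotype, 1 lower by fasting in Mcl1(L-/-) mice and 1 lower between the fasted groups. Over all probe sets, fasting called 8.2% higher and 6.25% lower in Mcl1(L-/-) mice, and 3.1% higher and 3.68% lower in WT mice. Between the fasted groups, 3.32% were called higher in Mcl1(L-/-). The part of these cell types in the results below was not tested.

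The annotated transcription starts were searched for pyrimidine runs. RefSeq promoter sequences (GRCm38.p6) were found for 55 of the 68 genes, with 66 annotated starts. Within 25 bases on either side of the start, 22 of 52 starts of components (42.3%) had a run of at least 8 pyrimidines (C or T) on the gene's strand, against 19.7% of all 32851 annotated starts and 20.5% of 73 starts of mitochondrial ribosomal protein genes. Paralogues and Rps19bp1 had such a run at 5 of 14 starts (35.7%). The median longest run of a component start was 7 bases. A longest run of at least 8 bases covered the annotated start itself at 12 component starts (23.1%), against 3.49% of all starts. The windows below belong to the genes called in a fasting comparison, apart from Rpl36 and Rpl3, and are shown to set the letters around their starts beside the values that follow. For Rpl35a and Rpl10a, which have several annotated starts, the one with the longest run is shown. Each window has 25 bases before the annotated start and the first 25 bases of the first exon, reads in the direction of transcription, and has its longest pyrimidine run in capitals.
Rps18, chr17:33955641-33955690, minus strand: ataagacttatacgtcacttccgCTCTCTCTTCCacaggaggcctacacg
Rps25, chr9:44407689-44407738, plus strand: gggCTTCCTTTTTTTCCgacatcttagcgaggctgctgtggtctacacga
Rpl5, chr5:107900503-107900552, plus strand: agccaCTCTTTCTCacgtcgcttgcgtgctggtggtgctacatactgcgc
Rps9, chr7:3704016-3704065, plus strand: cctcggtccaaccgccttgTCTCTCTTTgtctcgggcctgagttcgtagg
Rpl14, chr9:120571492-120571541, plus strand: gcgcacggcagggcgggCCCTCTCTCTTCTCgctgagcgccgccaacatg
Rpl35a, chr16:33056457-33056506, plus strand: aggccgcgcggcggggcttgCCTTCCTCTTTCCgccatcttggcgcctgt
Rps28, chr17:33824538-33824587, minus strand: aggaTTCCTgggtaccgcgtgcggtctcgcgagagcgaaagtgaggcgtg
Rps13, chr7:116334166-116334215, minus strand: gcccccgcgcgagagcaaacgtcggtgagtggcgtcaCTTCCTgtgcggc
Rpl10a, chr17:28328540-28328589, plus strand: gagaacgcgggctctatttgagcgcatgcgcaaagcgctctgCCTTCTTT
Rpl36al, chr12:69184043-69184092, minus strand: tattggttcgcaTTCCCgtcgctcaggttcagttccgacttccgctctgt
Rps27rt, chr9:114982715-114982764, minus strand: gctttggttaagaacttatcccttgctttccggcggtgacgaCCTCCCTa
Rpl32l, chr10:20208414-20208463, plus strand: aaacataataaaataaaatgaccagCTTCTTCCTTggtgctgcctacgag
The run is 14 bases long in Rps25 and Rpl14, 13 in Rpl35a, 11 in Rps18, 10 in the retrocopy Rpl32l, 9 in Rpl5 and Rps9 and 8 in Rpl10a. It is shorter in the retrocopy Rps27rt (7 bases), in Rps13 (6), and in Rps28 and the paralogue Rpl36al (5 each), so components and paralogues stand on both sides. The run covers the annotated start in Rps18, Rps9, Rpl14 and Rpl35a and begins at it in Rpl32l. In Rps25, Rpl5, Rps28 and Rpl36al it lies wholly before the start, outside the annotated transcript, and in Rps13, Rpl10a and Rps27rt it lies inside the first exon. In the wider window of 250 bases before to 50 after the start, the letters CCGGAAG, which ETS-family factors such as GABP bind, stood on either strand at 20 of 52 component starts (38.5%), against 8.86% of all starts and 34.2% of mitochondrial ribosomal protein starts. GGGCGG, the Sp1 motif, stood at 57.7% of component starts, 35.7% of all starts and 52.1% of mitochondrial ribosomal protein starts. AAGATGG, the YY1 motif, stood at 17.3% of component starts, 6.34% of all starts and 17.8% of mitochondrial ribosomal protein starts. Its first letters are the last of the GABP motif, so both can overlap. CACGTG, which Myc can bind, stood at 9.62% of component starts, 7.15% of all starts and 9.59% of mitochondrial ribosomal protein starts. Of the 12 genes shown, Rps18 and Rps25 carried CCGGAAG.

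Fasting of Mcl1(L-/-) mice raised 11 of the 68 genes and lowered 1. The raised genes were the large-subunit genes Rpl36, Rpl5, Rpl10a and Rpl14, the small-subunit genes Rps13, Rps9, Rps28, Rps25 and Rps18, and the retrocopies Rps27rt and Rpl32l. The paralogue Rpl36al was lowered. Folds were small, at 1.46 or less. A gene is called here when limma's moderated test, fitted on all 20 arrays, gives a Benjamini-Hochberg adjusted p under 0.05 over all 22206 probe sets. Over all probe sets, 14.4% were called in this comparison, 8.2% higher and 6.25% lower. Among the 4429 probe sets at least as bright as the dimmest component, termed of like brightness below, 23.6% were called higher. The 16.2% of the 68 genes called higher is no larger than that share. This cut-off is a floor and not a match in brightness. Of the 55 components, 46 lay in the top 5% of all probe sets, and some paralogues lay below the floor. The median difference over the 68 genes was 0.21 on the log2 scale, against -0.0015 over all probe sets and 0.05 over those of like brightness, and 60 of the 68 differences were above 0. In 10 of the 68 genes the fasted arrays did not overlap the fed arrays, all of them higher in fasted livers. Higher without overlap were 1306 of all 22206 probe sets and 836 of the 4429 of like brightness. In either direction, 10.2% of all probe sets did not overlap.

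Of the small-subunit genes, Rps18, whose protein lies in the head of the small subunit, had the lowest adjusted p. Its log2 signals were 10.13, 10.38, 10.05, 10.18 and 10.32 in fasted Mcl1(L-/-) livers, against 9.75, 9.77, 9.74, 9.87 and 9.75 in fed Mcl1(L-/-) livers. All 5 fasted arrays lay above all 5 fed arrays. The difference was 0.44 ± 0.08 (SE), or 1.35-fold, with an adjusted p of 0.000622. Rps25, known from studies of viral translation for its contact with internal ribosome entry sites, had 8.75, 9.07, 8.71, 8.89 and 9.19 in fasted livers, against 8.46, 8.54, 8.53, 8.41 and 8.43 in fed livers. The groups again did not overlap, with a difference of 0.45 ± 0.10 and an adjusted p of 0.00212. Rps9 had 8.05, 8.28, 7.91, 8.16 and 8.73 in fasted livers, against 7.55, 7.96, 7.75, 7.85 and 7.60 in fed livers. There, fasted replicate 3 lay below fed replicate 2, and the difference was 0.48 ± 0.12 (adjusted p = 0.00833). Rps28, a neighbour of the mRNA exit channel, differed by 0.47 ± 0.12 (adjusted p = 0.00727), and Rps13 by 0.50 ± 0.13 (adjusted p = 0.012), both without overlap. All 22 small-subunit genes had a difference above 0, from 0.04 to 0.50, and 5 were called. Rps6, the protein that S6 kinases phosphorylate, averaged 9.95 ± 0.20 in fasted and 9.73 ± 0.05 in fed Mcl1(L-/-) livers and was not called (adjusted p = 0.136). Rpsa, which also serves as a laminin receptor, averaged 8.77 ± 0.30 in fasted and 8.52 ± 0.04 in fed Mcl1(L-/-) livers (adjusted p = 0.154).

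**Figure D1:**
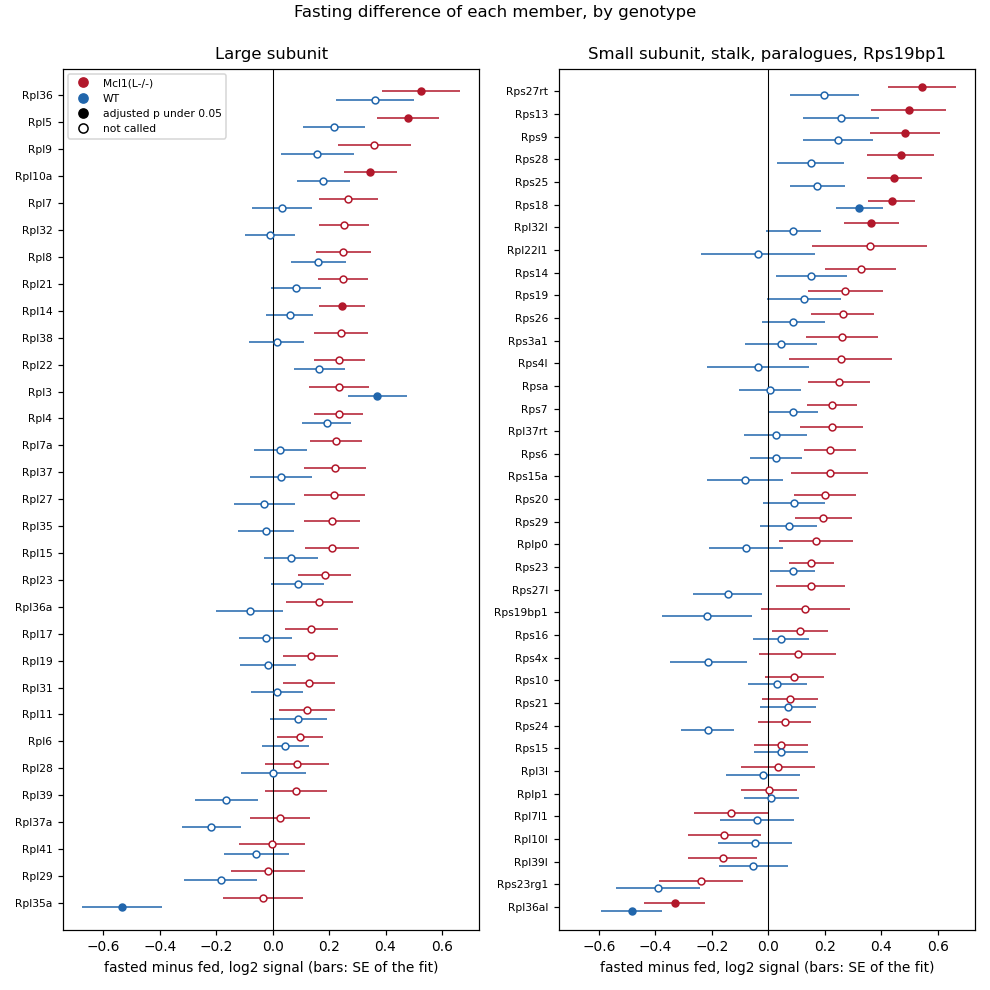
Difference in log2 signal of each of the 68 genes, fasted minus fed, in Mcl1(L-/-) mice (red, upper point of each row) and WT mice (blue, lower point), with bars of ±1 SE from the limma fit and filled points for adjusted p under 0.05. Most red points lie right of 0, with 11 filled there and Rpl36al filled on the left, while blue points lie on both sides of 0 with 4 filled.

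Of the large-subunit genes, Rpl5 codes for a protein that enters the ribosome together with Rpl11 on a small ribosomal RNA and that, when unassembled, binds Mdm2. Rpl5 had 9.13, 9.52, 9.06, 9.50 and 9.43 in fasted Mcl1(L-/-) livers, against 8.51, 8.97, 8.91, 9.02 and 8.85 in fed Mcl1(L-/-) livers. The groups did not overlap, and the difference was 0.48 ± 0.11 (adjusted p = 0.00351). Its partner Rpl11 was not called, at 9.72 ± 0.20 in fasted and 9.60 ± 0.09 in fed livers (adjusted p = 0.541). Whether the 2 partners differ in their response was not tested. Rpl36 had 7.39, 7.62, 7.33, 7.24 and 8.10 in fasted livers, against 7.02, 7.02, 6.94, 7.15 and 6.93 in fed livers. No array overlapped, but fasted replicate 5 stood well above the rest of its group, and the difference was 0.53 ± 0.14 (adjusted p = 0.0104). Rpl10a differed by 0.35 ± 0.09 (adjusted p = 0.0132). Rpl14 differed by 0.25 ± 0.08 and had an adjusted p of 0.0494, which moved to between 0.0315 and 0.138 when arrays were left out, with the call lost for 17 of the 20 arrays. It was also lost with quantile normalisation (adjusted p = 0.136), with array weights (0.0576) and on the 2 Mcl1(L-/-) groups alone (0.145). In all, 28 of 31 large-subunit genes had a difference above 0, and 4 were called. The 3 others, Rpl35a, Rpl29 and Rpl41, had differences of at most 0.03 in size. Rpl9 was not called (0.36 ± 0.13, adjusted p = 0.067), although its fasted arrays did not overlap its fed arrays.

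The fasted Mcl1(L-/-) arrays differed among themselves more than those of any other group. When each component was set against its own mean over the 20 arrays, the median over the 55 components was -0.08, 0.23, 0.002, 0.17 and 0.31 for fasted Mcl1(L-/-) replicates 1 to 5. Fed Mcl1(L-/-) arrays lay between -0.15 and -0.01, fasted WT arrays between -0.03 and 0.05, and fed WT arrays between -0.07 and -0.02. Fasted Mcl1(L-/-) replicates 2, 4 and 5 thus lay above every array of the other groups, and replicates 1 and 3 lay inside their range. Of the 55 components, 15 in replicate 1, 45 in replicate 2, 23 in replicate 3, 44 in replicate 4 and 50 in replicate 5 were above all 5 fed Mcl1(L-/-) arrays. The 11 raised genes were called from these same arrays, so their places follow in part from the call. Of them, 8 in replicate 1, 10 in replicate 3 and all 11 in replicates 2, 4 and 5 were above all fed Mcl1(L-/-) arrays. The median SD of a component was 0.20 in fasted Mcl1(L-/-), 0.09 in fed Mcl1(L-/-), 0.10 in fasted WT and 0.10 in fed WT livers. For probe sets of like brightness it was 0.22 in fasted Mcl1(L-/-), 0.16 in fed Mcl1(L-/-), 0.18 in fasted WT and 0.15 in fed WT livers. The fit uses 1 estimate of the spread for all groups, so its SE does not carry the wider spread of fasted Mcl1(L-/-) livers. Fitted on the 2 Mcl1(L-/-) groups alone, 10 genes were called. Left out singly, fasted replicate 1 had the largest effect on the count: without it, 19 genes were called.

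**Figure D2:**
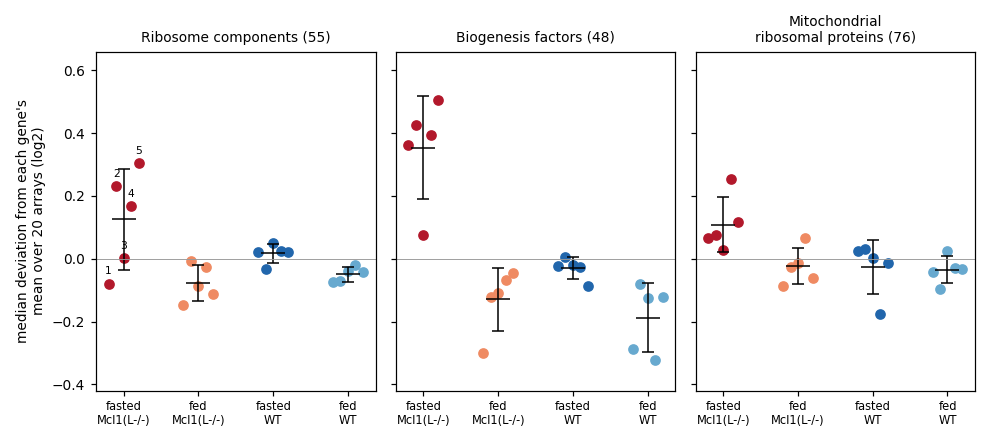
Median deviation from each gene's mean over 20 arrays (log2 units) for the 55 ribosome components, 48 ribosome biogenesis factors and 76 mitochondrial ribosomal proteins, 1 point per array in order of replicate, with mean and SD over 5 arrays as black bars and replicate numbers for the components in fasted Mcl1(L-/-) livers. Replicates 2, 4 and 5 of fasted Mcl1(L-/-) stand above all other arrays for the components, while replicate 1 is low for the components (-0.08) and high for the biogenesis factors (0.36).

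In WT mice, fasting changed 4 of the 68 genes: Rps18 and Rpl3 were raised, and Rpl35a and the paralogue Rpl36al were lowered. This is 5.88% of the genes, against 6.79% of all probe sets called in this comparison, 3.1% higher and 3.68% lower. The median difference over the 68 genes was 0.03, against 0.015 over all probe sets, and 43 differences were above 0. In 7 of the 68 genes the fasted arrays did not overlap the fed arrays. Rpl3, Rpl4, Rpl5, Rpl8 and Rps18 were higher in fasted livers, and Rpl35a and Rpl36al lower. In either direction, 1634 of all 22206 probe sets (7.36%) and 994 of the 4429 of like brightness did not overlap. Rps18 had 10.10, 10.12, 10.14, 10.06 and 10.20 in fasted WT livers, against 9.72, 9.84, 9.84, 9.79 and 9.81 in fed WT livers. The difference was 0.32 ± 0.08 (1.25-fold, adjusted p = 0.0189), and without fed WT replicate 1 its adjusted p was 0.051. Rps18 was thus raised by fasting in both genotypes.

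Rpl3, whose protein reaches toward the centre where peptide bonds form, had 9.03, 9.02, 9.24, 9.11 and 9.28 in fasted WT livers, against 8.97, 8.56, 8.75, 8.68 and 8.85 in fed WT livers. Every fasted array was higher, by 0.37 ± 0.11 on average (adjusted p = 0.0332). The call depended on 6 arrays: leaving out fed WT replicate 2, 3 or 4, or replicate 3, 4 or 5 of fasted WT, ended it, with a highest adjusted p of 0.103, and it was also lost on the 2 WT groups alone (adjusted p = 0.0517). Rpl35a, a protein whose human gene is mutated in some patients with Diamond-Blackfan anaemia, had 6.43, 6.19, 5.78, 5.82 and 6.53 in fasted WT livers, against 6.58, 6.59, 6.78, 6.82 and 6.64 in fed WT livers. Fasted replicates 3 and 4 were far below the others of their group, and the difference was -0.53 ± 0.14 (adjusted p = 0.022). The call ended when replicate 3 or 4 of either WT group was left out, with adjusted p up to 0.0828. In Mcl1(L-/-) mice Rpl35a had 5.99, 6.56, 6.75, 6.50 and 6.57 in fasted livers, against 6.47, 6.57, 6.49, 6.57 and 6.43 in fed livers. That difference was -0.03 ± 0.14, and the difference between the genotypes' responses was 0.50 ± 0.20 with an adjusted p of 0.324, so the 2 responses were not shown to differ.

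**Figure D3:**
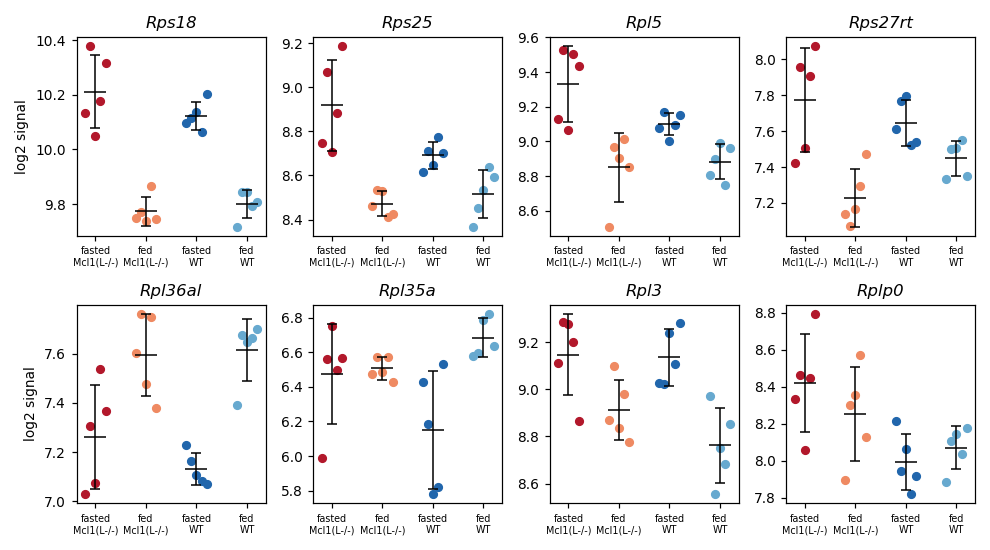
Log2 signal of 8 named genes in every liver, 1 point per array in order of replicate, with mean and SD over 5 arrays as black bars. Rps18 is higher in fasted livers of both genotypes without overlap, Rpl36al is lower in fasted livers of both genotypes with overlap in Mcl1(L-/-), and Rpl35a is lower in fasted than in fed WT livers, with fasted replicates 3 and 4 lowest.

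Rpl36al, a paralogue that codes for nearly the same protein as Rpl36a, was the only gene of the 68 called lower by fasting in both genotypes. It had 7.03, 7.30, 7.07, 7.54 and 7.37 in fasted Mcl1(L-/-) livers, against 7.60, 7.76, 7.48, 7.75 and 7.38 in fed Mcl1(L-/-) livers. It had 7.23, 7.16, 7.11, 7.08 and 7.07 in fasted WT livers, against 7.39, 7.67, 7.65, 7.66 and 7.70 in fed WT livers. The groups overlapped in Mcl1(L-/-) mice, where fed replicate 5 was low, and not in WT mice. The difference was -0.33 ± 0.11 in Mcl1(L-/-) (adjusted p = 0.0403) and -0.48 ± 0.11 in WT (adjusted p = 0.00556). The Mcl1(L-/-) call ended when fasted replicate 1, 2 or 3 or fed replicate 1, 2 or 4 of that genotype was left out, with adjusted p up to 0.124, and also with median centring (0.0776), with array weights (0.0543) and on the 2 Mcl1(L-/-) groups alone (0.114). Its parent Rpl36a averaged 8.61 ± 0.24 in fasted and 8.44 ± 0.15 in fed Mcl1(L-/-) livers, and 8.33 ± 0.12 in fasted and 8.42 ± 0.19 in fed WT livers, and was called in neither. The difference between paralogue and parent was not tested.

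Of the other paralogues, the retrocopies Rps27rt and Rpl32l were raised by fasting in Mcl1(L-/-) mice. Rps27rt had 7.42, 7.96, 7.51, 7.91 and 8.07 in fasted Mcl1(L-/-) livers, against 7.14, 7.07, 7.17, 7.30 and 7.47 in fed Mcl1(L-/-) livers, a difference of 0.54 ± 0.12 (adjusted p = 0.0025). Fasted replicate 1 lay below fed replicate 5. Rpl32l differed by 0.37 ± 0.10 (adjusted p = 0.0105) without overlap, while its parent Rpl32 was not called (adjusted p = 0.0584). Where the probes lie is not known here, so signal of a retrocopy and of its parent or of processed pseudogenes cannot be told apart. Rpl22l1, which in mice is repressed by the protein of its parent Rpl22, averaged 6.26 ± 0.24 in fasted and 5.90 ± 0.49 in fed Mcl1(L-/-) livers (adjusted p = 0.304), and 5.72 ± 0.30 in fasted and 5.76 ± 0.36 in fed WT livers (adjusted p = 0.962). Rps27l, a target of p53 in human cells, averaged 8.20 ± 0.23 in fasted and 8.05 ± 0.16 in fed Mcl1(L-/-) livers (adjusted p = 0.53). Rpl3l, the muscle form of Rpl3, averaged 2.60 ± 0.16 in fasted Mcl1(L-/-), 2.57 ± 0.20 in fed Mcl1(L-/-), 2.65 ± 0.10 in fasted WT and 2.67 ± 0.31 in fed WT livers, with no call. Rpl7l1, Rpl10l and Rpl39l, with Rps4l (a transcribed pseudogene in RefSeq), Rps27l, Rpl37rt, Rps23rg1, Rpl3l and Rpl22l1, were called in no comparison, and neither was Rps19bp1.

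The deletion itself changed none of the 68 genes at the threshold. In fed mice, 0 genes were called with limma, against 0.036% of all probe sets, and 3 had an unadjusted p under 0.05 (Rps3a1, Rpl28 and Rpl29, all lower). An unadjusted p under 0.05 was found for 1429 of all 22206 probe sets and 378 of the 4429 of like brightness. Among the 68 genes the lowest adjusted p was 0.537, for Rps3a1, whose protein lies near the site where initiation factors bind. Rps3a1 had 8.00, 8.11, 8.08, 8.60 and 8.16 in fed Mcl1(L-/-) livers, against 8.49, 8.55, 8.57, 8.65 and 8.58 in fed WT livers. All but replicate 4 of the Mcl1(L-/-) arrays were below the WT arrays, and the difference was -0.38 ± 0.13. The median over the 68 genes was -0.04, against -0.0017 over all probe sets.

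In fasted mice, 0 genes were called between Mcl1(L-/-) and WT, against 4.99% of all probe sets, and 18 had an unadjusted p under 0.05, of which 17 were higher in Mcl1(L-/-). With limma, an unadjusted p under 0.05 was found for 4065 of all 22206 probe sets and 1626 of the 4429 of like brightness. The median difference of the 68 genes was 0.13, against -0.017 over all probe sets, and 57 of 68 differences were above 0. The lowest adjusted p was 0.0617, for Rplp0, the protein that anchors the stalk where elongation factors bind. Rplp0 had 8.34, 8.46, 8.06, 8.45 and 8.80 in fasted Mcl1(L-/-) livers, against 8.22, 7.95, 8.07, 7.82 and 7.92 in fasted WT livers. The difference was 0.43 ± 0.13, and Mcl1(L-/-) replicate 3 lay within the WT range. Rps9 (0.39 ± 0.12, adjusted p = 0.0707) and Rpsa (0.33 ± 0.11, adjusted p = 0.0881) came next. These 3 genes were the ones called when each array was centred on its median, and without fasted Mcl1(L-/-) replicate 3 the number called was 4. All 12 Kupffer cell and all 7 endothelial markers also had differences above 0 in this comparison, and their part in it was not tested. The other stalk protein, Rplp1, averaged 10.74 ± 0.18 in fasted Mcl1(L-/-) and 10.58 ± 0.05 in fasted WT livers (adjusted p = 0.393).

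The test of the difference between the 2 fasting responses called 0 of the 68 genes with limma, against 0.135% of all probe sets. Its unadjusted p was under 0.05 for Rpl35a and Rpl32. The same held for 2477 of all 22206 probe sets and 939 of the 4429 of like brightness. The fasting difference was larger in Mcl1(L-/-) than in WT for 62 of 68 genes, with a median excess of 0.17 against -0.01 over all probe sets. Without fasted Mcl1(L-/-) replicate 5 the median was 0.13, and without replicate 1 it was 0.22. The 2 fasting comparisons use different mice, whereas this test and the genotype comparisons reuse the same arrays.

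Genes that work with the ribosomal proteins were followed in the same arrays, and differences between these lists and the 68 genes were not tested. Called higher by fasting were 8.2% of all probe sets and 23.6% of those of like brightness in Mcl1(L-/-) mice, and 3.1% and 9.78% in WT mice. Called higher in fasted Mcl1(L-/-) than in fasted WT livers were 3.32% of all probe sets and 8.08% of those of like brightness. Like brightness means at least as bright as the dimmest component. This is a floor, so these shares are matched neither to the components nor to the lists below. Of 3 other proteins of the cytosolic ribosome sought by gene symbol, only Fau was found. Fau averaged 8.88 ± 0.19 in fasted and 8.29 ± 0.12 in fed Mcl1(L-/-) livers, and 8.85 ± 0.15 in fasted and 8.36 ± 0.06 in fed WT livers. It was raised in both genotypes (adjusted p = 0.000219 and 0.00292). Of 48 ribosome biogenesis factors, 28 were raised by fasting in Mcl1(L-/-) mice and 0 lowered, with a median of 0.50. In WT mice 3 (6.25%) were raised, with a median of 0.21, against 3.1% of all probe sets. These factors were dimmer than the components: their median mean signal was 5.52, below the 5.86 of the dimmest component. Nop58, a core protein of the particles that methylate ribosomal RNA, averaged 5.93 ± 0.38 in fasted and 4.88 ± 0.31 in fed Mcl1(L-/-) livers, and 4.76 ± 0.17 in fasted and 4.67 ± 0.32 in fed WT livers. The nucleolar helicase Ddx21 averaged 7.44 ± 0.36 in fasted and 6.34 ± 0.14 in fed Mcl1(L-/-) livers, and 6.50 ± 0.21 in fasted and 6.21 ± 0.16 in fed WT livers. Rrp1b, a nucleolar processing factor, was raised in both genotypes, by 1.38 ± 0.19 in Mcl1(L-/-) and 0.90 ± 0.19 in WT. Between fasted Mcl1(L-/-) and fasted WT livers, 15 of the 48 (31.2%) were higher, led by Nop58 (1.18 ± 0.18, adjusted p = 0.000792), where 0 of the 68 ribosomal protein genes were called. For the difference between the 2 responses, 0 of the 48 were called, 15 had an unadjusted p under 0.05, and the lowest adjusted p was 0.0829. In that limma test, 2477 of all 22206 probe sets had an unadjusted p under 0.05.

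A list of translation factors and other genes, drawn up with terminal oligopyrimidine mRNAs in mind, had 27 measured members. Runs at their starts were not counted separately, so which of the 27 carry such a tract is not given here. Of the 27, 16 (59.3%) were raised by fasting in Mcl1(L-/-) mice and 2 (7.41%), Eif3m and Eif6, in WT mice. Eif6, which keeps the large subunit from joining the small one too early, averaged 7.33 ± 0.30 in fasted and 6.52 ± 0.20 in fed Mcl1(L-/-) livers, and 6.59 ± 0.15 in fasted and 6.14 ± 0.12 in fed WT livers. It was the only 1 of the 27 higher in fasted Mcl1(L-/-) than in fasted WT livers (0.74 ± 0.13, adjusted p = 0.00235). Of 17 chaperones and import factors of ribosomal proteins, 9 (52.9%) were raised in Mcl1(L-/-) and 2 (11.8%), Nap1l1 and Kpnb1, in WT mice. The WT share was near the 9.78% of probe sets at least as bright as the dimmest component. Nmd3, the export adaptor of the large subunit, averaged 6.20 ± 0.35 in fasted and 5.52 ± 0.20 in fed Mcl1(L-/-) livers, and 5.45 ± 0.16 in fasted and 5.39 ± 0.20 in fed WT livers.

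Among 23 regulators of ribosomal protein synthesis, fasting raised 7 (30.4%) and lowered 1 (Eif4ebp2) in Mcl1(L-/-) mice and raised 1 (4.35%) in WT mice. The raised genes with the largest differences restrain mTOR complex 1. Ddit4 (REDD1) averaged 7.64 ± 1.07 in fasted and 4.87 ± 0.81 in fed Mcl1(L-/-) livers, and 5.67 ± 0.45 in fasted and 4.19 ± 0.67 in fed WT livers, and was raised in both genotypes (adjusted p = 4.78e-05 and 0.0322). Sesn1 averaged 7.13 ± 1.39 in fasted and 5.48 ± 0.17 in fed Mcl1(L-/-) livers (adjusted p = 0.00338), and 5.38 ± 0.16 in fasted and 5.36 ± 0.13 in fed WT livers (adjusted p = 0.991). Between fasted Mcl1(L-/-) and fasted WT livers, 5 of the 23 (21.7%) were higher: Myc, Ddit4, Sesn1, Eif4ebp1 and Mtor. For the difference between the 2 responses, 0 of the 23 were called and 6 had an unadjusted p under 0.05 with limma. The same held for 2477 of all 22206 probe sets.

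**Figure D4:**
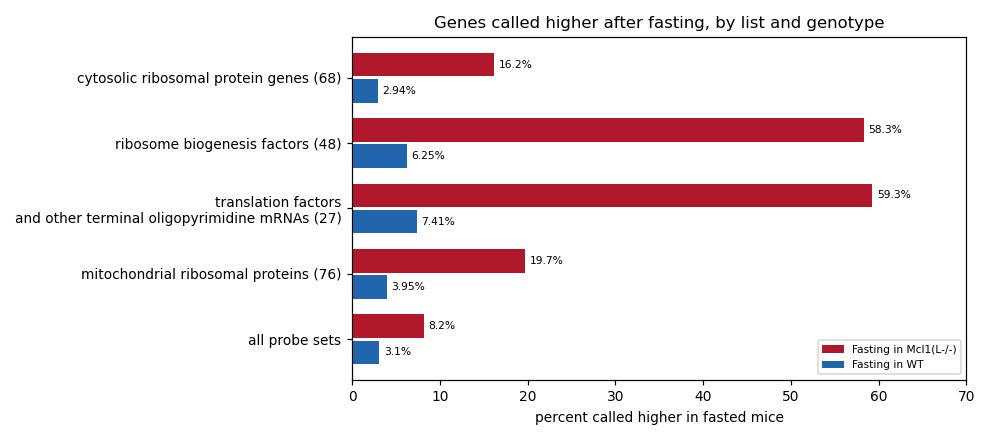
Percent of genes called higher in fasted than in fed livers (limma, adjusted p under 0.05) in Mcl1(L-/-) mice (red) and WT mice (blue) for 4 gene lists, with the number measured in brackets, and for all 22206 probe sets. In Mcl1(L-/-) mice 16.2% of the cytosolic ribosomal protein genes were called higher, beside 58.3% of biogenesis factors, 59.3% of translation factors and 8.2% of all probe sets. Among probe sets at least as bright as the dimmest ribosome component, not drawn here, the share was 23.6%.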

How the data were processed

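The authors deposited 1 table of log2 signals for 20 arrays and 22206 probe sets, made with RMA and Partek 7.0 per the submitters' processing notes. How RMA was set, which annotation version was used and where the probes lie are points not given in the sources used here. No log base is stated in the table, and log2 was taken from RMA and the range of values. RMA brings all arrays to 1 distribution, which hides a change common to most genes. Array medians were 3.35 to 3.47.

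The 68 genes, the related lists and the named genes were chosen with earlier results of these data known. Named were called genes, those with the largest rises and falls in each comparison, the genes with the highest and lowest mean, paralogues with their parents, and fixed genes such as Rpl5, Rpl11, Rps6 and Rpsa. No gene of the 68 had several probe sets.

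limma 3.58.1 in R 4.3.3 (lmFit and eBayes, tested on simulated data) was fitted to all 20 arrays and 4 groups with no covariate, and p-values were adjusted by Benjamini-Hochberg over all 22206 probe sets. Replicates are mice, and 5 per group limit the precision. Alternatives were quantile normalisation, median centring, the brighter probe sets only, trend and robust moderation, array weights, only the groups compared, the replicate number as a block, and each array left out in turn. Deviations from the group means correlated between -0.19 and 0.166 over 30 pairs of same-numbered arrays, 1 of them over 0.1, so replicate numbers were not taken to pair mice. Promoters came from RefSeq (GRCm38.p6), and sequences of Rpl7, Rps20, Rpl21, Rps4l, Rpl32, Rpl29, Rplp1, Rps29, Rpl8, Rpl3, Rpl36, Rps14 and Rpl17 were not used here. Python 3.11.15 with pandas 2.3.3 and matplotlib 3.10.9 did the rest.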

Additional observations from a re-analysis of the deposited data

Results flagged for a closer look

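Each of 42 named genes was examined in each of the 4 groups, 168 sets of 5 arrays in all, for an array whose gap to its nearest neighbour took most of the group's range. Chance alone gives about 1 in 20 such sets, 5%, and 9 were found. All but 2 were in fed Mcl1(L-/-) livers. Rpl7 had 9.27 in fed Mcl1(L-/-) replicate 1, with the other 4 arrays at 9.50 to 9.54, and 9.23 in fed WT replicate 1, with the others at 9.50 to 9.58. Rps18 had 9.87 in fed Mcl1(L-/-) replicate 4, above 9.74 to 9.77 in the others, and still below every fasted Mcl1(L-/-) array. Rps3a1 had 8.60 in the same array, above 8.00 to 8.16. Rplp1 had 10.99 in fed Mcl1(L-/-) replicate 2, above 10.65 to 10.69. Rpl14 had 9.42 in that array, above 9.28 to 9.30. Rps19bp1 had 4.90 in that array, below 5.23 to 5.33. Rpl10l had 5.76 in fed Mcl1(L-/-) replicate 1, above 5.29 to 5.40. Rpl36al had 7.39 in fed WT replicate 1, below 7.65 to 7.70, and still above every fasted WT array.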

How the results depend on the processing

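The medians over the 68 genes kept their direction under every alternative run. They moved by less than the SD between replicates of the component median, 0.087. That SD is itself larger than the medians for fasting in WT (0.03) and for genotype in fed mice (-0.04). The median between genotypes in fasted mice, 0.13, fell to 0.087 with quantile normalisation and to 0.085 without fasted Mcl1(L-/-) replicate 5. With quantile normalisation the median excess of the fasting response fell from 0.17 to 0.13. With arrays left out singly, the number of genes called by fasting ranged from 2 to 4 in WT (2 without replicate 3 or 4 of either WT group) and from 10 to 19 in Mcl1(L-/-) (19 without fasted Mcl1(L-/-) replicate 1). Between the genotypes in fasted mice it was 0 in the fit reported and 0 to 4 with arrays left out: 4 without fasted Mcl1(L-/-) replicate 3, and 1 without fasted or fed Mcl1(L-/-) replicate 1. That count was 3 with median centring, 2 with the brighter probe sets only and 2 with trend and robust moderation. The cause of these changes was not tested. With the replicate block, fasting called 3 genes in WT and 12 in Mcl1(L-/-), and Rpl3 in WT (adjusted p = 0.0665) and Rpl14 in Mcl1(L-/-) (0.0807) lost the call. Of 448 values of called genes under alternatives, 43 lost the call and none reversed. Of 5380 values of genes not called, 21 gained the call and 134 others moved without gaining it. Over all probe sets, the 8 called between genotypes in fed mice became 15 with trend and robust moderation, 26 with array weights and 7 to 16 with arrays left out. The 1109 called in fasted mice became 399 on those 2 groups alone and 497 to 1707 with arrays left out. The 30 called for the difference between responses became 52 with the brighter probe sets, 55 with array weights and 9 to 331 with arrays left out. Array number and the wide spread of fasted Mcl1(L-/-) livers limit the precision.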

Other observations

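Mitochondrial ribosomes translate the mRNAs of the mitochondrial genome and are built from other proteins, also encoded in the nucleus. Of 76 mitochondrial ribosomal protein genes, fasting raised 15 and lowered 1 in Mcl1(L-/-) mice, with a median of 0.09, and raised 3 and lowered 3 in WT mice, with a median of -0.02. These are 21.1% of the 76 in Mcl1(L-/-) and 7.89% in WT mice, against 14.4% and 6.79% of all probe sets. All 76 lay above the median probe set. Of the 11103 probe sets there, 26.6% were called in Mcl1(L-/-) and 12.6% in WT mice, so both shares of the 76 were lower. Mrpl17 was raised in both genotypes, by 0.87 ± 0.11 in Mcl1(L-/-) (adjusted p = 4.61e-06) and 0.48 ± 0.11 in WT (adjusted p = 0.00673). Mrpl49 was lower in fasted Mcl1(L-/-) livers than in fed ones (-0.79 ± 0.15) and than in fasted WT livers (-0.68 ± 0.15). Between fasted Mcl1(L-/-) and fasted WT livers, 8 were higher and 2 lower, or 13.2%. This stands against 4.99% of all probe sets and 9.32% of those above the median.

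Of 9 genes of ribosome quality control and of the checkpoint that unassembled ribosomal proteins act on, Cdkn1a, the cell cycle inhibitor p21, was raised by fasting in both genotypes, by 3.81 ± 0.44 in Mcl1(L-/-) and 3.86 ± 0.44 in WT. Mdm2, the ligase that unassembled Rpl5 and Rpl11 bind, was higher in fasted Mcl1(L-/-) than in fasted WT livers by 0.40 ± 0.11 (adjusted p = 0.0343). No other gene of the 9 was called in these 3 comparisons. The share called was thus 11.1% in each. Over all probe sets it was 14.4% for fasting in Mcl1(L-/-), 6.79% for fasting in WT and 4.99% between the fasted groups.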
